A study of Rattus norvegicus with 24 samples.

Results

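The genes described here are the stearoyl-CoA desaturases Scd1 and Scd2 and the enzymes and regulator of fatty acid synthesis around them, followed in rat lung exposed to whole-cigarette smoke condensate (WCSC). They were found as the lines of the deposited count files whose symbol is Scd1, Scd2, Scd, Fasn, Acaca, Acly, Elovl6, Srebf1, Fads1 or Fads2. Of these 10 names, 9 have a line of their own among the 16881 distinct symbols, and Scd has none. In RefSeq the rat gene called Scd carries Scd1 as an older name and Scd2 carries Scd as an older name, so the symbol Scd is covered by those 2 lines. The set was selected on the measured levels of Scd1 and Scd2, which were lower at 20 mg/mL and 12 days than in the control, so values from that comparison are given below as a description, without a test. All 9 genes passed the filter on low counts and were among the 11351 genes tested.

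The study asked how gene expression in lung tissue differs between WCSC-treated and control rats. It has 8 groups of 3 libraries each, a control and WCSC at 5, 10 and 20 mg/mL, each at 6 and at 12 days. All 24 samples are lung of wild-type rats. Strain, sex, age, the route and schedule of exposure and the treatment of the controls are not given in the sources at hand. Nothing in the labels tells if the 3 samples of each group are from different animals, so p-values measure the spread between these samples, which may be technical.

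Fatty acids are built from acetyl-CoA. ATP citrate lyase (Acly) makes cytosolic acetyl-CoA from citrate, acetyl-CoA carboxylase (Acaca) turns it into malonyl-CoA, and fatty acid synthase (Fasn) assembles palmitate. Elovl6 lengthens palmitate to stearate, the stearoyl-CoA desaturases put the first double bond into palmitate and stearate, and Fads1 and Fads2 desaturate polyunsaturated fatty acids. The transcription factor encoded by Srebf1 is a main activator of this pathway. In the lung, type II cells of the alveoli make fatty acids for surfactant, the lipid film that keeps alveoli open.

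Total counts per library ranged from 4795667 to 11109713. The type II cell markers that the files hold, 11 of 12 on the list, were all measured, and their summed level ranged from 8131 to 30793 CPM (read counts scaled to the size of the library) over the 24 libraries, so markers of lung were present in every one. Library 2 of 20 mg/mL at 12 days stood apart: its heart muscle markers summed to 3480 CPM, against 18.0 CPM in the lowest library, and its type II cell markers were the lowest of all. No gene passed an adjusted p of 0.05 in edgeR's quasi-likelihood test in any comparison of a dose with its control. In the same test 142 to 535 genes per comparison, 1.25% to 4.71% of those tested, had an unadjusted p under 0.05. That is no more than the threshold of 0.05 alone would give. In the same comparisons DESeq2 called 0 to 4 genes and limma's voom fit, weighted by sample quality, called 0 to 5. In a bulk sample, fewer cells of a type and less RNA per cell cannot be told apart.

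Scd1 and Scd2 lie near each other on rat chromosome 1 and encode closely related enzymes, so reads from one could be counted for the other. The labels and files do not tell how the counting treated reads that match both. The 250 bases before the annotated start of each gene are shown because the means of both genes were low in the same groups. They come from RefSeq, build GRCr8, and are written 5′ to 3′ on the strand of the gene, with the letters CCAAT, a motif bound by the factor NF-Y, in capitals.
Scd2, chr1:253118127-253118376, plus strand: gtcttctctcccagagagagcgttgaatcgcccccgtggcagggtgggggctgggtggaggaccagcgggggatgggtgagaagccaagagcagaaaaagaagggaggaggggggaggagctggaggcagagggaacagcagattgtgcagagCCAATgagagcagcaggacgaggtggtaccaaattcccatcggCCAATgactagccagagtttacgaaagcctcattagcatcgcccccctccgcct
Scd (the line Scd1 in the files), chr1:253231732-253231981, minus strand: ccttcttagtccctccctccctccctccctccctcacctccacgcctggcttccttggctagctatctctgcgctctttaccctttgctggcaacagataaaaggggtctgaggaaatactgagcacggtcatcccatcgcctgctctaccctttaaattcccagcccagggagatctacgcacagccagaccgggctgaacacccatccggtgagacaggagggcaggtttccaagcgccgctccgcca
The Scd2 stretch holds CCAAT 2 times, starting 97 and 54 bases before the start, and the Scd stretch does not hold it on either strand. Over all 33469 rat promoter stretches of this length, 34.0% hold CCAAT on at least 1 strand. Neither stretch holds GGGCGG (30.5% of all), TCACNCCAC, a form of the sterol regulatory element (0.974% of all), or CACGTG (5.59% of all). A match or its absence is a description of these letters in this window only. RefSeq matched all 9 genes, and promoter stretches were at hand for 6 of them. Among the others, Acly, Fads1 and both listed starts of Srebf1 hold CCAAT and GGGCGG, and Fads2 holds GGGCGG only.

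Scd1, the inducible liver-type desaturase, varied 4.26-fold between the highest and the lowest group mean. In the controls at 6 days its 3 libraries measured 110.2, 125 and 203 CPM. At 5 mg/mL they measured 62.0, 159 and 84.8 CPM, which overlaps the control. The 10 mg/mL libraries measured 68.7, 44.0 and 74.4 CPM, and all 3 were below the lowest control. Those of 20 mg/mL measured 232, 195 and 180.4 CPM, which overlaps the control and lies above every library of 10 mg/mL, a difference that was not tested. At 12 days the order was different. The 12-day controls measured 311, 244 and 241 CPM, the 5 mg/mL libraries 156, 184 and 177 CPM, and the 10 mg/mL libraries 247, 121 and 102 CPM. The 20 mg/mL libraries of 12 days measured 166, 68.3 and 56.0 CPM, below all 3 controls, with library 1 above the other 2.

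**Figure D1:**
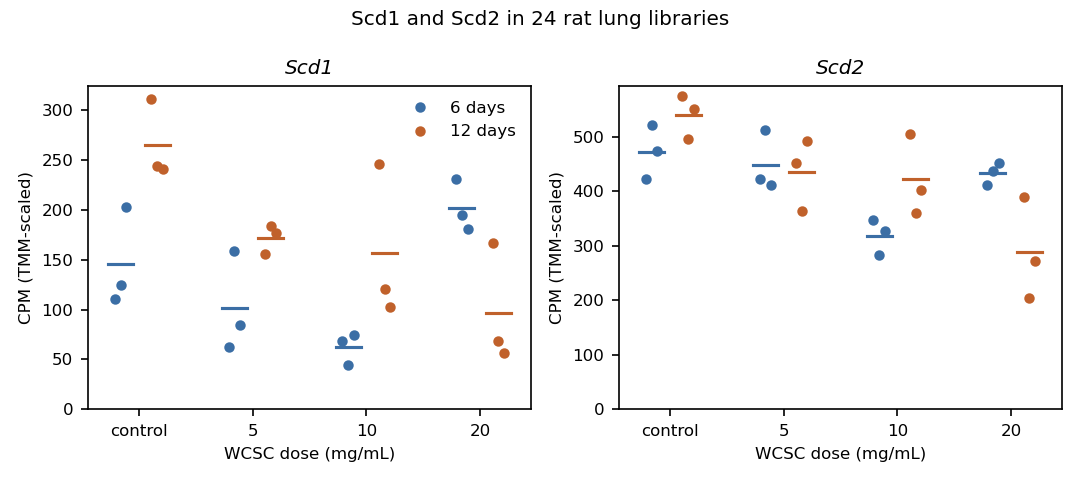
Scd1 (left) and Scd2 (right) in each library, in TMM-scaled CPM on a linear axis from 0, by WCSC dose in mg/mL. Points are libraries, bars are the means of 3, blue is 6 days and orange 12 days. Within a day, the lowest group mean of both genes is that of 10 mg/mL at 6 days (62.4 and 318 CPM) and that of 20 mg/mL at 12 days (96.9 and 289 CPM). Single libraries of other doses of the same day lie among theirs, except for Scd2 at 6 days.

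The Scd1 group means (± SD, n = 3) ran from 266 ± 39.6 CPM in the 12-day controls to 62.4 ± 16.1 CPM at 10 mg/mL and 6 days. The 12-day controls did not overlap the next group, 20 mg/mL at 6 days with 202 ± 26.3 CPM. From there down, each group overlapped its neighbour in the order: 172 ± 14.7 CPM at 5 mg/mL and 12 days, 157 ± 78.6 CPM at 10 mg/mL and 12 days, 146 ± 50.1 CPM in the 6-day controls, 102 ± 50.7 CPM at 5 mg/mL and 6 days, and 96.9 ± 60.5 CPM at 20 mg/mL and 12 days. The controls of the 2 days thus lie apart for this gene, with all 3 libraries at 12 days above all 3 at 6 days, as for 4.7% of all genes. The 12-day controls are part of the comparison that picked the set, so this gap is a description.

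Scd2, the desaturase isoform prominent in brain, covered a narrower range. The 6-day controls measured 421, 521 and 473 CPM and the 5 mg/mL libraries 422, 511 and 411 CPM. With 10 mg/mL they measured 347, 282 and 326 CPM, again all below the lowest control. With 20 mg/mL they measured 411, 437 and 451 CPM, inside or just under the control range. At 12 days the controls measured 574, 495 and 550.5 CPM, and 5 mg/mL gave 452, 363 and 491 CPM. The 10 mg/mL libraries measured 505, 359.7 and 402 CPM, and at 20 mg/mL 389.9, 204 and 272 CPM. All 3 libraries at 20 mg/mL and 12 days were below the controls, and library 2, which carries the heart muscle signal, was the lowest of the 24. In the order of group means (± SD, n = 3), the 12-day controls were highest at 539.8 ± 40.8 CPM and 20 mg/mL at 12 days lowest at 289 ± 94.1 CPM. The only neighbours that did not overlap were 10 mg/mL at 12 days (422 ± 74.6 CPM) and 10 mg/mL at 6 days (318 ± 33.2 CPM).

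The rule that picked the set used none of the 6-day libraries. Members and lists were, however, chosen with earlier results of these data known, so the 6-day comparisons are not fully separate from the choice. The 6-day comparisons also share 1 set of control libraries with each other. Both desaturases were low at 10 mg/mL and 6 days: the log2 fold change against control was -1.23 (SE 0.39, 95% interval -2.03 to -0.43) for Scd1 and -0.57 (SE 0.21, 95% interval -0.99 to -0.14) for Scd2. These are folds of 0.427 and 0.675 of the control. The unadjusted p was 0.00430 for Scd1 and 0.0113 for Scd2 in edgeR, and neither passed after Benjamini-Hochberg adjustment over all genes (adjusted p = 0.990 for both, and 0.0590 to 1 for Scd1 and 0.0600 to 1 for Scd2 over the alternatives). With each of the 6 libraries left out in turn, the log2 fold change stayed between -1.39 and -0.91 for Scd1 and between -0.64 and -0.49 for Scd2. The other 6-day doses gave Scd1 log2 fold changes of -0.52 (SE 0.38) for 5 mg/mL and 0.47 (SE 0.38) for 20 mg/mL. For Scd2 they were -0.07 (SE 0.20) and -0.12 (SE 0.20). Single libraries moved these values. The Scd1 value for 5 mg/mL was -0.99 without library 2 of that dose and -0.21 without library 3 of the control. The one for 20 mg/mL was 0.30 without library 1 of the control and 0.78 without library 3 of the control. The Scd2 value for 20 mg/mL lay between -0.20 and -0.045 and that for 5 mg/mL between -0.18 and 0.0032. The 95% intervals at 20 mg/mL ran from -0.32 to 1.26 for Scd1 and from -0.55 to 0.30 for Scd2. The intervals at 10 and 20 mg/mL overlap for Scd2 and not for Scd1. Both doses share the same controls, and the difference between them was not tested. A slope linear in dose at 6 days was 0.026 per mg/mL (SE 0.018) for Scd1 and -0.0083 per mg/mL (SE 0.0098) for Scd2 on the log2 scale, with adjusted p = 0.999 in edgeR for both.

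At 12 days and 20 mg/mL, the comparison that picked the set, the log2 fold change was -1.46 (SE 0.39) for Scd1 and -0.90 (SE 0.21) for Scd2, that is 0.364 and 0.535 of the control level. Without library 1, the highest of its group for both genes, the values were -2.10 and -1.18. Without library 2, the one rich in heart muscle transcripts, they were -1.26 and -0.70, and without the 3 libraries with the highest heart muscle level they were -1.31 and -0.76. The Scd1 value was -1.18 without library 3 of 20 mg/mL, its weakest with single libraries left out, and it reached -1.04 over the other alternatives. The lower doses at 12 days share the control libraries of that comparison, so they cannot stand as separate evidence. For Scd1 the log2 fold change was -0.76 (SE 0.38) with 10 mg/mL and -0.62 (SE 0.38) with 5 mg/mL. For Scd2 it was -0.35 (SE 0.21) with 10 mg/mL and -0.31 (SE 0.21) with 5 mg/mL. Without library 1 of 10 mg/mL the first Scd1 value was -1.25, and without library 2 of 5 mg/mL the last Scd2 value was -0.19. The comparison of 10 with 5 mg/mL at 12 days uses none of those controls. It gave -0.14 (95% interval -0.92 to 0.65) for Scd1 and -0.04 (95% interval -0.47 to 0.38) for Scd2, with adjusted p = 1 in edgeR, and its libraries overlapped. The effect of 20 mg/mL at 12 days minus that at 6 days was -1.93 (SE 0.54) for Scd1 and -0.78 (SE 0.29) for Scd2, a description because it contains the comparison that picked the genes.

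**Figure D2:**
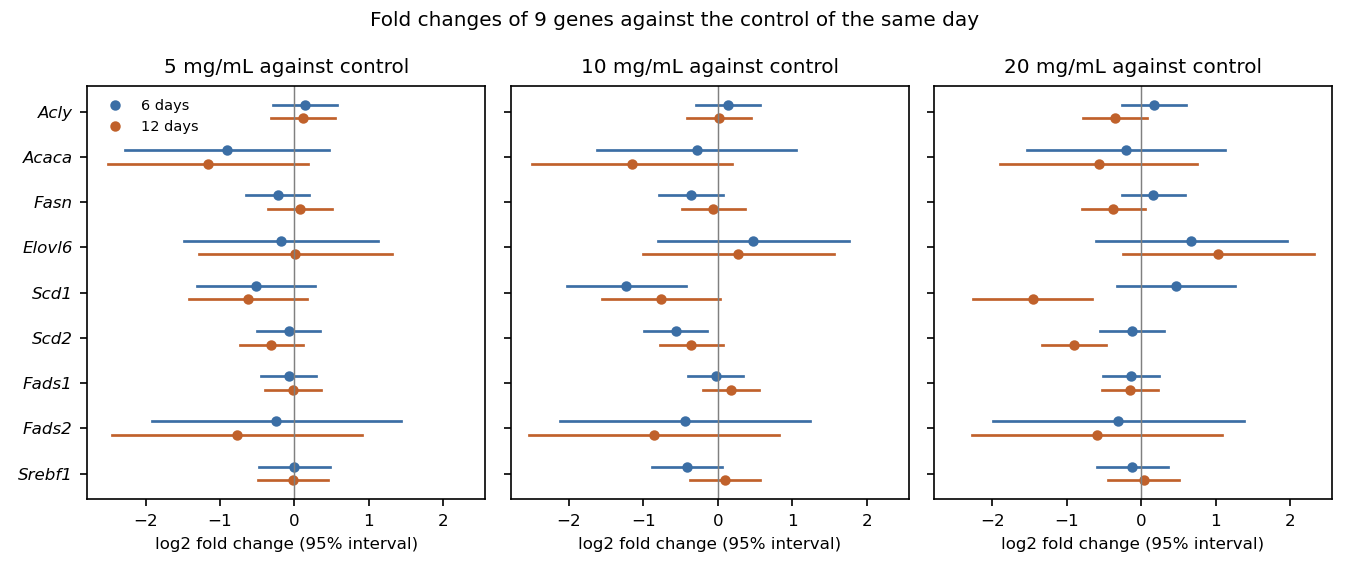
Log2 fold changes of the 9 genes against the control of the same day, by dose (panels) and day (blue 6 days, orange 12 days), with 95% intervals of the edgeR fit as lines. The intervals of Scd1 and Scd2 lie below 0 at 10 mg/mL and 6 days (-1.23 and -0.57), their values at 20 mg/mL and 12 days picked the set so that those intervals are no test, and the intervals of the low-count genes Acaca, Elovl6 and Fads2 are wide.

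Counted over the set at 10 mg/mL and 6 days, 7 of 9 genes had a lower mean than control, against 49.8% of all genes tested. The 3 libraries of 4 genes, Scd1, Scd2, Fasn and Srebf1, were all below the 3 controls, against 3.23% of all genes, and 2 genes, Scd1 and Scd2, had an unadjusted p under 0.05 and a lower level, against 1.24% of all genes. The median log2 fold change of the 9 was -0.36, beside 0.00 for all genes. Without library 2 of 10 mg/mL the median was -0.10 and 1 gene, Scd1, had an unadjusted p under 0.05. For 20 mg/mL and 6 days, 5 of 9 were lower (50.3% of all genes), none was below all controls (4.7% of all genes) and none had an unadjusted p under 0.05 (1.98% of all genes lower, 2.11% higher). For 5 mg/mL and 6 days, 8 of 9 were lower (50.8% of all genes), none was below all controls (4.16% of all genes) and none had an unadjusted p under 0.05 (2.19% of all genes lower, 2.52% higher). In the comparison that picked the set, 20 mg/mL at 12 days, 7 of 9 were lower (48.8% of all genes) and 3 (Scd1, Scd2 and Acaca) were below all controls (4.11% of all genes), which is a description. The lower doses at 12 days had 5 of 9 lower with 10 mg/mL (48.9% of all genes), of which Acaca was below all controls (4.55% of all genes), and 6 of 9 lower with 5 mg/mL (50.3% of all genes), of which Scd1, Scd2 and Acaca were below all controls (3.91% of all genes). None of the 9 had an unadjusted p under 0.05 in those (1.05% and 0.643% of all genes lower). None of the 9 passed at an adjusted p of 0.05 in edgeR in the 6-day comparisons, in those of the lower doses with control at 12 days or in that of 10 with 5 mg/mL. The slope at 6 days was called for 0.00881% of all genes.

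Of the enzymes that supply the desaturases, Acly measured 254, 199.7 and 215 CPM in the 6-day controls and 312, 232 and 194 CPM at 10 mg/mL and 6 days. The groups overlap, and the log2 fold change was 0.14 (SE 0.21), so the mean of Acly was above the control where those of Scd1 and Scd2 were below it. The 20 mg/mL libraries of 12 days gave 183, 109 and 194 CPM against 217, 218 and 186 CPM in the controls, a log2 fold change of -0.35 (SE 0.21). The low value came mostly from library 2, without which it was -0.13. Over the 24 libraries the log2 level of Acly correlated with the mean of the type II cell markers at Pearson r 0.81 (Spearman rho 0.54, and r 0.57 without the 2 libraries of most extreme Acly level). By rho other measures lay further from 0: Schwann cell and myelin markers (r -0.80, rho -0.64), log2 total counts (r 0.66, rho 0.63) and macrophage markers (r 0.35, rho 0.62). So did the number of genes a library detected at equal depth (r -0.57, rho -0.56).

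Acaca was counted with only 5 to 47 reads per library, which limits what can be said of it. It measured 2.98, 5.65 and 3.43 CPM in the 6-day controls and 0.852, 2.40 and 6.70 CPM at 10 mg/mL and 6 days, a log2 fold change of -0.28 with a 95% interval from -1.62 to 1.05. Without library 3 of 10 mg/mL it was -1.30, and without library 1 it was 0.18. In the 12-day controls it measured 8.01, 6.61 and 5.50 CPM, above every library of the 3 doses at that day. Against these same 3 controls its log2 fold change was -1.17 (SE 0.65) with 5 mg/mL and -1.15 (SE 0.65) with 10 mg/mL. The 20 mg/mL value was -0.57 (SE 0.64).

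Fasn measured 259, 297 and 350.5 CPM in the 6-day controls and 243, 254 and 209.9 CPM at 10 mg/mL and 6 days, where all 3 libraries were below the lowest control. The log2 fold change was -0.36 (SE 0.21, edgeR unadjusted p = 0.0942, adjusted p = 0.990), and -0.24 without library 3 of the control. With 20 mg/mL at 6 days it measured 249, 348 and 418 CPM, a log2 fold change of 0.16 (SE 0.21), and -0.017 without library 3 and 0.33 without library 1. With 20 mg/mL at 12 days it measured 291, 173 and 205 CPM against 315, 292 and 258 CPM in the controls. That log2 fold change was -0.37 (SE 0.21), -0.61 without library 1 and -0.22 without library 2.

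Elovl6, with 4 to 43 reads per library, was the member with the highest fold change at 20 mg/mL on both days. It measured 1.43, 2.07 and 2.72 CPM in the 6-day controls and 2.69, 3.07 and 4.15 CPM at 20 mg/mL, a log2 fold change of 0.68 (95% interval -0.61 to 1.96). At 12 days the controls measured 0.822, 3.85 and 2.82 CPM and 20 mg/mL gave 2.62, 8.37 and 4.59 CPM, a log2 fold change of 1.04 (SE 0.62). Without library 2, the highest, it was 0.53, and without library 2 of the control it was 1.47. The groups overlapped at both days.

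Of the polyunsaturated fatty acid desaturases, only Fads1 had the counts for a narrow interval. Fads1, the delta-5 desaturase, was the most even gene of the set: its group means lay between 73.9 CPM at 20 mg/mL and 12 days and 92.4 CPM at 10 mg/mL and 12 days. Its 10 mg/mL libraries of 6 days measured 92.9, 90.2 and 79.5 CPM against 97.6, 86.2 and 84.1 CPM in the controls, a log2 fold change of -0.03 with a 95% interval from -0.40 to 0.34. A change of the size seen for Scd1 lies outside that interval. Fads2, the delta-6 desaturase, had 3 to 22 reads per library and 0.380 to 4.31 CPM, and its log2 fold change at 10 mg/mL and 6 days was -0.44 with a 95% interval from -2.12 to 1.24. It ran from -1.54 without library 1 of 10 mg/mL to -0.020 without library 2.

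Srebf1, the activator of the pathway, measured 57.4, 58.4 and 61.2 CPM in the 6-day controls and 38.1, 46.6 and 48.3 CPM at 10 mg/mL and 6 days, with all 3 libraries below the controls. Its log2 fold change was -0.41 (SE 0.23, edgeR unadjusted p = 0.0860, adjusted p = 0.990). This is the lowest group mean of the gene, 44.3 ± 5.45 CPM (SD, n = 3). Where Scd1 and Scd2 were also low, with 20 mg/mL at 12 days, Srebf1 measured 46.3, 79.8 and 50.1 CPM against 41.5, 59.8 and 70.4 CPM in the controls. The log2 fold change there was 0.03 (SE 0.23), -0.25 without library 2, the highest of all 24 libraries, and 0.21 without library 3 of the control. Srebf1 was thus low beside the desaturases in 1 of the 2 groups in which they were lowest.

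**Figure D3:**
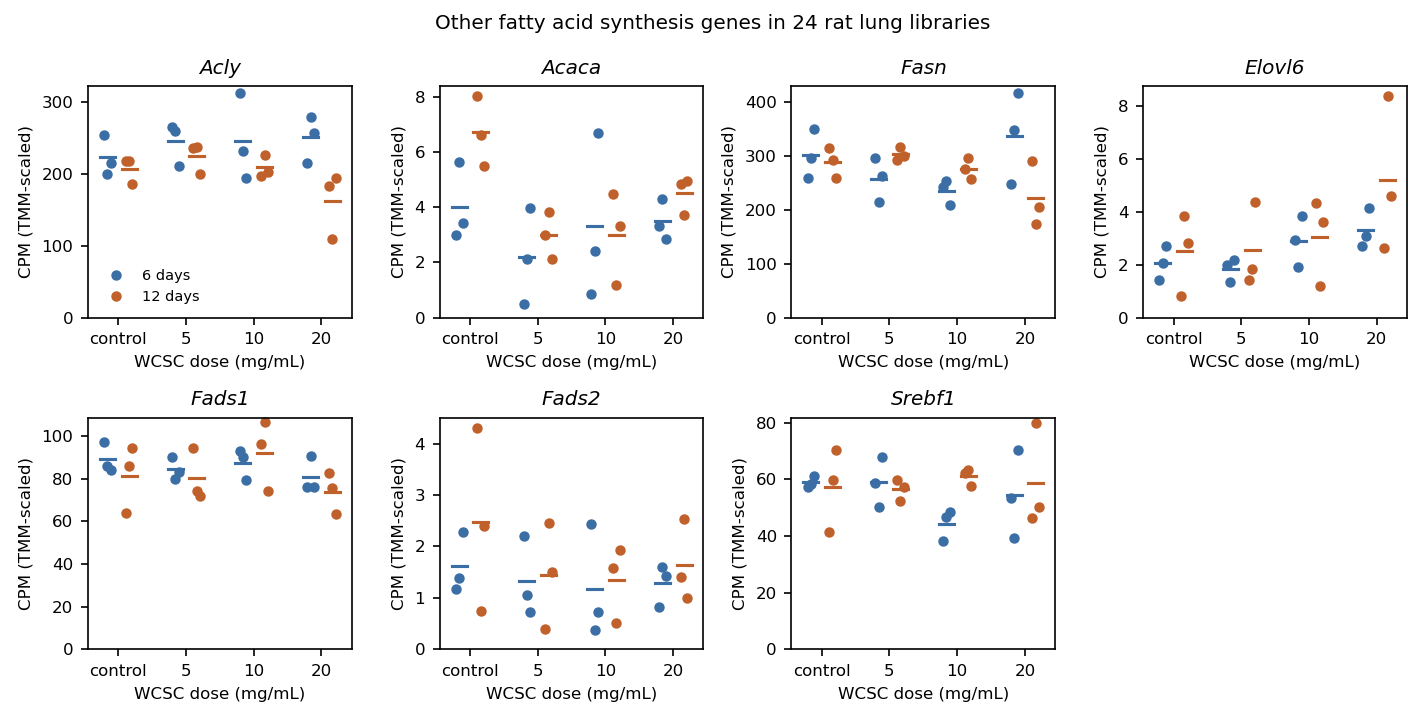
The other 7 genes in each library, in TMM-scaled CPM on linear axes from 0, by WCSC dose in mg/mL (blue 6 days, orange 12 days; bars are the means of 3 libraries). Srebf1 and Fasn are lowest among the 6-day groups at 10 mg/mL (44.3 and 235 CPM on average), and Acly shows no such dip (246 CPM against 223 CPM in the controls).

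Over the 24 libraries Scd1 and Scd2 went together. Their log2 CPM correlated at Pearson r 0.75 (Spearman rho 0.72), at 0.67 without the 2 libraries of most extreme Scd1, and at 0.67 after the group means were subtracted. Within the 12 libraries of 6 days r was 0.72 and rho 0.54, and within the 12 of 12 days r was 0.89. Among the other 11350 genes tested, Scd1 ranked 1 in likeness to Scd2, and Scd2 ranked 30 in likeness to Scd1. The 24 points share the groups and the count scaling, and reads that fit both genes could add to the likeness, so these values are descriptions.

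**Figure D4:**
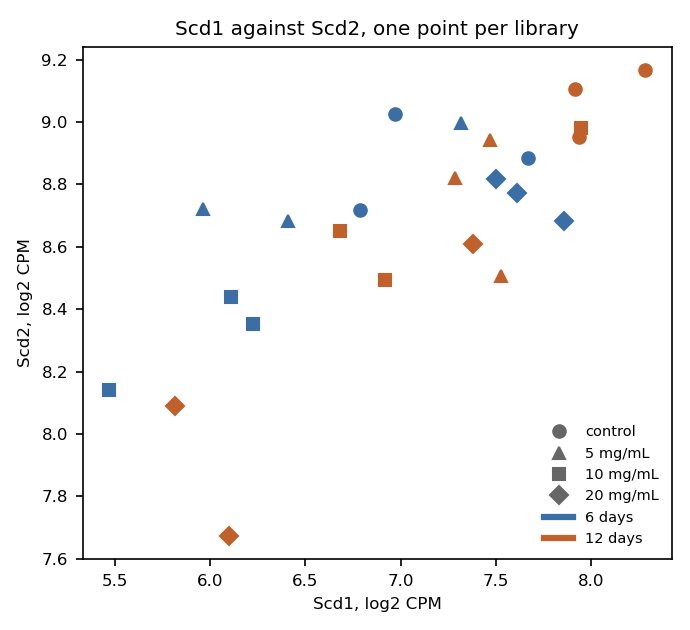
Scd1 against Scd2 in log2 CPM, 1 point for each of the 24 libraries. Colour gives the day and marker shape the dose, and the low corner holds the 3 libraries of 10 mg/mL at 6 days and 2 of the 3 of 20 mg/mL at 12 days (Pearson r 0.75).

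The rest of the set was less alike. Fasn correlated with Scd1 at r 0.54 and with Scd2 at r 0.60, values of 0.15 and 0.36 within groups. Acaca correlated with Scd1 at r 0.42 and Acly at r 0.06. Srebf1 correlated with Scd1 at r 0.05 and with Scd2 at r -0.02, and with Acly at r -0.52. By day the values of Srebf1 had opposite signs: r was 0.21 with Scd1 and 0.44 with Scd2 within 6 days, and -0.26 and -0.31 within 12 days. Within groups they were -0.31 and -0.44. Srebf1 also went with how many genes a library detected at equal depth (r 0.63), for which Scd1 and Scd2 gave r 0.19 and 0.02.

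Outside the set, the genes most like Scd1 over the 24 libraries were Hnrnph2 (r 0.82), a protein that binds RNA, Btbd3 (r 0.82), Ctdspl2 (r 0.82), Ngly1 (r 0.81), an enzyme that removes sugar chains from misfolded proteins, and Pik3r3 (r 0.81), a regulatory subunit of phosphoinositide 3-kinase. Without the 2 libraries of most extreme Scd1 these values were 0.80, 0.79, 0.78, 0.73 and 0.73. The genes most like Scd2 were Rmdn2 (r 0.75), Thbs1 (r 0.73), the matrix protein thrombospondin, Epc2 (r 0.72), Stag1 (r 0.70), a cohesin subunit, and Pi4k2b (r 0.69), a phosphatidylinositol kinase. Without the 2 libraries of most extreme Scd2, Thbs1 came to 0.49 and Epc2 to 0.43, so much of their likeness rests on those libraries. Thbs1 also had a mean of only 2.29 CPM, which limits its precision.

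Other lipid genes were read from lists by role, with members of highest mean level named from each. None of them passed at an adjusted p of 0.05 in edgeR at 10 mg/mL and 6 days. There 309 of all genes (2.72%) had an unadjusted p under 0.05. Cholesterol synthesis and uptake, a pathway driven by the related factor Srebf2, had 18 of 20 measured genes lower than control (49.8% of all genes), with a median log2 fold change of -0.23, and 2 with an unadjusted p under 0.05 (1.24% of all genes). Of its most abundant members, Cyp51, a sterol demethylase, measured 51.3 CPM on average against 74.7 CPM, a log2 fold change of -0.54 (SE 0.28), and -0.37 without library 1 of 10 mg/mL. The 2 with an unadjusted p under 0.05, named after their values were seen, were Msmo1 (-0.63, SE 0.21) and Nsdhl (-0.75, SE 0.33). The 3 libraries of each were below all controls, as for 3.23% of all genes. Without the 8 libraries with the fewest genes detected, which leaves 1 library of 10 mg/mL, Msmo1 came to -0.30, Nsdhl to -0.23 and Cyp51 to -0.23. The count of the list rested on single libraries: 12 of 20 were lower without library 3 of 10 mg/mL (median -0.09) and 13 of 20 without library 1 of the control. With limma voom and sample quality weights 12 of the 20 were lower, with a median of -0.07.

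The regulators of lipid synthesis had 9 of 11 genes lower at 10 mg/mL and 6 days, with a median of -0.19. Among them Mid1ip1, which activates acetyl-CoA carboxylase, gave -0.44 (SE 0.23) and Srebf2 gave -0.38 (SE 0.25). Without library 1 of 10 mg/mL the values were -0.20 and -0.19. Srebf2 ran from -0.67 without library 3 of 10 mg/mL to -0.17 without library 3 of the control. Without the same 8 libraries 6 of 11 were lower and Srebf2 came to -0.085. The genes that supply acetyl-CoA and NADPH had 5 of 7 lower (3 of 7 without library 3 of the control), with a median of -0.11, and Pgd, of the pentose phosphate pathway, gave 0.01 (SE 0.19). Elongation and other desaturases had 3 of 7 lower, with a median of 0.12, and Elovl1 gave -0.12 (SE 0.24) and Hacd3 -0.07 (SE 0.17). Fatty acid activation and glycerolipid synthesis had 7 of 12 lower, with a median of -0.06, and its acyl-CoA synthetases Acsl4 and Acsl5 gave -0.35 (SE 0.23) and 0.16 (SE 0.20). Acsl4 came to -0.16 without library 2 of 10 mg/mL, and Acsl5 to -0.0021 without library 1. Lpin2, a phosphatidate phosphatase named after its values were seen, gave 0.48 (SE 0.22). Fatty acid oxidation had 7 of 15 lower, with a median of 0.07, and Cpt1a, which admits fatty acids to mitochondria, and Acaa2, a thiolase, gave 0.33 (SE 0.25) and 0.39 (SE 0.35). Without library 1 of 10 mg/mL they were 0.15 and 0.059, and they reached 0.53 without library 1 of the control for Cpt1a and 0.77 without library 3 of 10 mg/mL for Acaa2. Fatty acid uptake and storage had 5 of 9 lower, with a median of -0.13, and Fabp5, a fatty acid carrier, and Plin2, a lipid droplet protein, gave -0.38 (SE 0.34) and -0.19 (SE 0.20). Fabp5 ran from -0.63 without library 2 of the control to -0.12 without library 3 of the control. Plin2 ran from -0.30 without library 2 of 10 mg/mL to -0.12 without library 1 of the control.

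**Figure D5:**
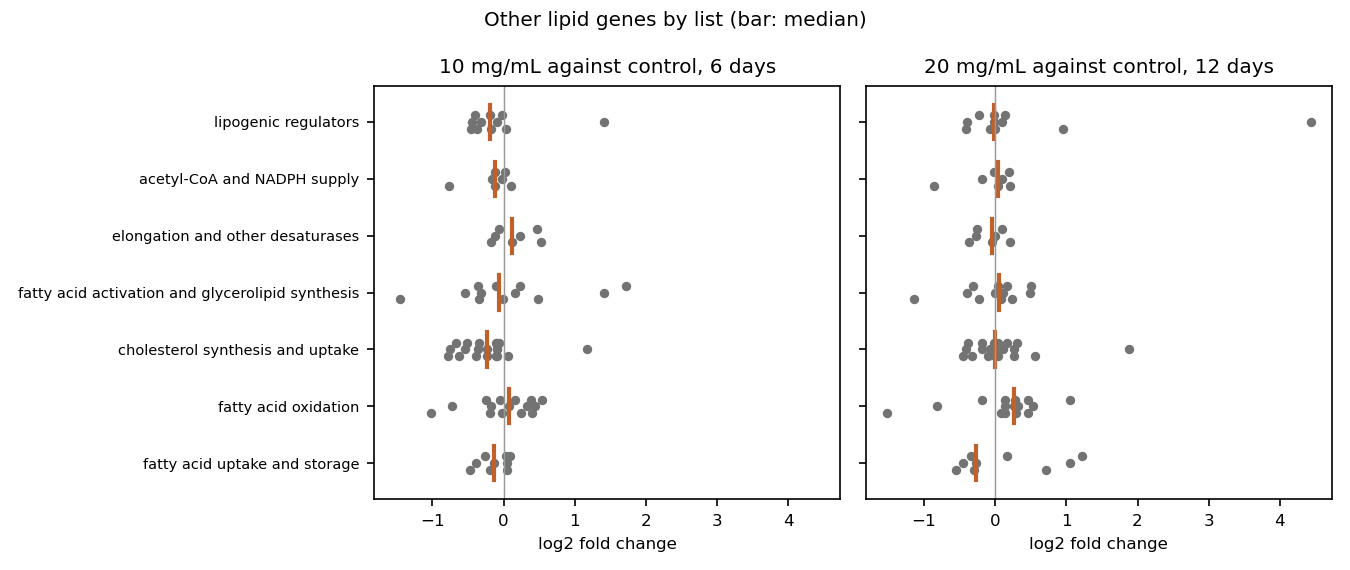
Log2 fold changes of the other lipid genes by list, at 10 mg/mL and 6 days (left) and at 20 mg/mL and 12 days (right), each against the control of its day. Grey points are genes and orange bars list medians, with the cholesterol list at -0.23 on the left and 0.00 on the right, and the oxidation list at 0.07 and 0.27.

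The lists lay differently at 20 mg/mL and 12 days. Cholesterol synthesis and uptake had 10 of 20 genes lower (48.8% of all genes), with a median of 0.00, while Scd1 and Scd2 were low in the same group. It had 14 lower without library 2 of 20 mg/mL and 7 without library 2 of the control. Fatty acid oxidation had 12 of 15 higher, with a median of 0.27 beside 0.01 for all genes, and 9 of 15 higher without the 3 libraries with the highest heart muscle level. Its median was 0.16 without library 2 and 0.08 without library 3 of 20 mg/mL. Its genes with an unadjusted p under 0.05 (2.37% of all genes higher), named after their values were seen, were Slc25a20, the carnitine carrier of mitochondria (0.53, SE 0.21), and Hadhb, a subunit of the trifunctional protein (0.46, SE 0.19). Without library 1 of the control they were 0.42 and 0.27, and without either of libraries 2 and 3 of 20 mg/mL neither had an unadjusted p under 0.05. Regulators had 6 of 11 lower (median -0.01), elongation and other desaturases 5 of 7 (median -0.05), activation and glycerolipid synthesis 4 of 12 (median 0.06), and uptake and storage 5 of 9 (median -0.27, and 0.19 without library 1 of the control). Without library 2 of the control, regulators had 3 of 11 lower and activation and glycerolipid synthesis 7 of 12.

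The supply genes had 3 of 7 lower at 20 mg/mL and 12 days (5 of 7 without library 2), with a median of 0.04. Slc25a1, the carrier that exports citrate from mitochondria as the substrate of Acly, was named after its values were seen: it measured 22.3, 14.0 and 17.7 CPM against 33.5, 29.9 and 34.7 CPM in the controls. All 3 libraries were below the controls, as for 4.11% of all genes. The log2 fold change was -0.86 (SE 0.33), and -1.04 to -0.71 with each library left out in turn. Thrsp, a lipogenic protein also named after its values were seen, measured 1.81, 59.0 and 0.124 CPM against 0.822, 2.02 and 0 CPM. Its high value came from library 2 alone. Fabp3, the heart-type fatty acid carrier, was likewise named after its values were seen. It measured 19.3, 65.4 and 16.8 CPM against 15.0, 14.9 and 13.7 CPM. Its log2 fold change was 1.22 (SE 0.39), and 0.31 without library 2.

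Marker lists of other cell types are given beside these values. The type II cell markers had 8 of 11 genes lower at 20 mg/mL and 12 days, and their summed level was 21376, 8131 and 23919 CPM in libraries 1, 2 and 3 against 19480 to 22372 CPM in the controls. Without library 2, 4 of 11 were lower. Of these libraries, Scd1 was lowest in library 3 (56.0 CPM), where the type II cell markers were above the control range. Scd2 was lowest in library 2 (204 CPM), where the type II cell markers were the lowest of all. Over the 24 libraries, the type II marker mean correlated with Scd1 at r 0.35 (rho 0.33) and with Scd2 at r 0.53 (rho 0.17). Without the 2 libraries of most extreme level of each gene, r was 0.46 and 0.063. Within 12 days r was 0.50 and 0.67. Adipocytes are rich in Scd1, and the markers of these cells had 5 of 7 measured genes higher. Of these, 4 (Retn, Cfd, Fabp4 and Pck1) had an edgeR unadjusted p under 0.05 (2.37% of all genes higher). The median log2 fold change of the adipocyte markers was 1.26, and 0.01 without the 3 libraries with the highest heart muscle level. Their summed level was 357 to 675 CPM against 371 to 563 CPM in the controls. Adipoq, Lep, Cidea, Adrb3 and Ucp1 were under the filter on low counts. Fibroblast markers had 7 of 8 higher (4 of 8 without library 2). Of the 8, 4 were higher with an edgeR unadjusted p under 0.05 (2.37% of all genes higher). They summed to 4595, 20739 and 5185 CPM, against 3123 to 6087 CPM in the controls.

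The other lists of that comparison lay apart from the controls in part. Heart muscle markers had 10 of 10 genes higher, with a median of 4.50 and 9 with an unadjusted p under 0.05 (2.37% of all genes higher), and summed to 57.1, 3480 and 30.4 CPM against 43.3 to 163 CPM. Without library 2 all 10 were lower. Endothelial markers had 7 of 7 lower, with a median of -0.29, and summed to 2428, 1221 and 2463 CPM against 2303 to 2905 CPM. Without library 2 they had 5 of 7 lower, with a median of -0.02. Club, goblet and ciliated cell markers had 7 of 7 higher, with a median of 1.13, and summed to 14408, 19604 and 11330 CPM against 8248 to 12022 CPM. Without library 2 they had 4 of 7 higher, with a median of 0.29. Schwann cell and myelin markers had 5 of 5 higher, with a median of 0.77, but summed to 1147, 882 and 928 CPM against 909.6 to 989 CPM, and without library 2 the median was 0.33. Macrophage markers had 6 of 10 higher, with 469.8 to 631 CPM against 451 to 496 CPM, and red blood cell markers 4 of 5 lower (1 of 5 without library 2), with 11004 to 30385 CPM against 17827 to 25842 CPM. With an edgeR unadjusted p under 0.05, 2 club, goblet and ciliated cell markers and 2 Schwann cell and myelin markers were higher. So was 1 macrophage marker (2.37% of all genes higher), and 1 type II cell marker was lower (3.7% of all genes in either direction). Low Scd1 and Scd2 levels were thus measured beside these shifts in library 2, and in library 3, where Scd1 was lowest, the heart muscle markers were below the control range. Within 12 days, Scd1 correlated with the adipocyte, fibroblast and endothelial marker means at r -0.62, -0.52 and 0.54. For Scd2 these values were -0.75, -0.75 and 0.74. Within 6 days they were 0.28, 0.096 and -0.23 for Scd1, and 0.16, -0.077 and -0.42 for Scd2. What lies behind these correlations was not tested.

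The marker lists lay closer to the controls at 10 mg/mL and 6 days. Type II cell markers had 6 of 11 lower, with 17407 to 25138 CPM against 19620 to 24961 CPM. Adipocyte markers had 3 of 7 lower, with 328 to 729 CPM against 342 to 774 CPM. Macrophage markers had 8 of 10 higher, with 332 to 619 CPM against 396 to 549.9 CPM (9 of 10 lower without the 8 libraries, and 4 of 10 higher without library 1 of 10 mg/mL), and heart muscle markers 7 of 10 higher, with 84.6 to 155 CPM against 38.0 to 92.2 CPM. Endothelial markers had 5 of 7 higher, club, goblet and ciliated cell markers 4 of 7, fibroblast markers 4 of 8, Schwann cell and myelin markers 2 of 5 and red blood cell markers 1 of 5 (4 of 5 without library 1 of the control). Libraries 1 and 2 of this group were among the 8 with the fewest genes detected at equal depth, as was library 1 of its control. With those 8 left out, the log2 fold change was -1.15 (SE 0.52) for Scd1 and -0.61 (SE 0.33) for Scd2, resting on 1 exposed library. The part of cell composition in these differences was not tested.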

How the data were processed

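Total lung RNA, extracted with Trizol, was sequenced from the end of transcripts with a Lexogen QuantSeq kit, per the labels' protocols. Bowtie2, bedtools and build rn6 come from the submitters' processing notes. Versions, annotation, strand and the handling of reads matching several genes were not stated in the sources at hand. The authors deposited raw read counts per gene symbol, 1 file for each of 24 samples.

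The files hold 17048 lines, and 316 lines whose symbol is repeated (2.48% of counts) were left out. Counts were filtered with filterByExpr (11351 genes), scaled by TMM and fitted with edgeR 4.0.16 in R 4.3.3 as 8 group means with 16 residual degrees of freedom. Tests were two-sided, with Benjamini-Hochberg adjustment over all genes and a threshold of 0.05. CPM are TMM-scaled, and log2 CPM used a prior count of 2. The fit was tested on simulated data. Samples were grouped by the titles in the labels.

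Members and lists were chosen with earlier results of these data known. The rule for named genes took every member, the 2 most abundant genes of each lipid list and the 5 genes most like Scd1 and Scd2, of which 2 list genes are not reported here. Alternatives were RLE size factors, no filter beyond 1 read, DESeq2 1.42.0, limma 3.58.1 voom weighted by sample quality, fits limited to the compared groups, a replicate block, and each sample left out in turn. Leaving out the 3 libraries with the highest heart muscle level, or the 8 with the fewest genes detected, was added after seeing the data.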

Additional observations from a re-analysis of the deposited data

How the results depend on the processing

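Of the 54 fold changes of the 9 genes against control, 34 kept their sign in every alternative run and 20 did not, with 55 of 756 alternative values on the other side of 0. All 12 of Scd1 and Scd2 kept their sign except Scd2 at 5 mg/mL and 6 days. Outside the comparison that picked the set, none of them passed an adjusted p of 0.05 in any alternative run. Low counts of Acaca, Elovl6 and Fads2 limit their precision. The cause of the shifts below was not tested.

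At 20 mg/mL and 6 days the edgeR fit called 0 genes at an adjusted p of 0.05, with 465 (4.1% of all) at an unadjusted p under 0.05. The number called came to 1 with RLE size factors, 1 with no filter, 3 with DESeq2 and 2 with voom. It was 3 without the 8 libraries with the fewest genes detected. Voom called 5 at 10 mg/mL and 6 days, and at 5 mg/mL and 6 days DESeq2 called 2 and leaving out single libraries 0 to 2. The slope at 6 days, with 1 call, gave 7 with DESeq2, 2 with voom, 0 with only its own groups, 0 without the 3 libraries with the highest heart muscle level, 2 without the 8 libraries and 0 to 2 with single libraries left out. The count at 20 mg/mL and 12 days was 4 with DESeq2, 2 with voom and 1 with only its own groups. At 10 mg/mL and 12 days it was 1 with DESeq2, 2 with only its own groups and 1 without the 8 libraries, and at 5 mg/mL and 12 days 1 with DESeq2. For 10 against 5 mg/mL at 12 days it was 3 with only its own groups and 1 without the 8 libraries.

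Same-numbered samples did not deviate together throughout. Over the 18 same-number pairs of each day the correlations ran from -0.18 to 0.59 at 6 days (median 0.172) and from -0.15 to 0.21 at 12 days (median 0.0203). Over the 36 different-number pairs of each day the medians were -0.105 and -0.0183. At 6 days same-numbered samples were thus more alike in the median. The numbers were not taken as a pairing in the main fit. The replicate block within each day gave 1 call at 20 mg/mL and 6 days against 0 without it, and log2 fold changes of -1.20 for Scd1 and -0.56 for Scd2 at 10 mg/mL and 6 days. With the block Srebf1 changed sign at 5 mg/mL and 12 days, to 0.0032.

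Log2 fold changes that changed sign were as follows. Without the 3 libraries with the highest heart muscle level they were Fasn -0.019 at 20 mg/mL and 6 days, Srebf1 -0.21 at 20 mg/mL and 12 days, and Srebf1 0.013 and Fads1 0.019 at 5 mg/mL and 12 days. With voom they were Fads1 0.045 at 10 mg/mL and 6 days, Srebf1 -0.29 at 20 mg/mL and 12 days, Fasn 0.013, Elovl6 -0.043 and Srebf1 -0.045 at 10 mg/mL and 12 days, and Elovl6 -0.38 at 5 mg/mL and 12 days. Without the 8 libraries with the fewest genes detected, the 6-day values were Srebf1 0.038 at 20 mg/mL, Srebf1 0.17 at 5 mg/mL, and Acaca 0.55, Acly -0.10, Pgd -0.092, Acsl5 -0.15 and Acaa2 -0.68 at 10 mg/mL. The 12-day values were Srebf1 -0.042 and Fads2 0.31 at 20 mg/mL, Fasn 0.018, Elovl6 -0.11 and Srebf1 -0.078 at 10 mg/mL, and Elovl6 -0.39 at 5 mg/mL.

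With single libraries left out, these ranges crossed 0. They were, at 20 mg/mL and 6 days, Fasn -0.017 to 0.33, Acaca -0.39 to 0.12, Srebf1 -0.35 to 0.071 and Fads2 -0.49 to 0.028. For 10 mg/mL and 6 days they were Acaca -1.30 to 0.18, Acly -0.067 to 0.29, Fads1 -0.073 to 0.042, Pgd -0.068 to 0.099, Elovl1 -0.27 to 0.18, Hacd3 -0.15 to 0.0043 and Acsl5 -0.0021 to 0.32. At 5 mg/mL and 6 days they were Scd2 -0.18 to 0.0032, Elovl6 -0.38 to 0.066, Srebf1 -0.12 to 0.10 and Fads2 -0.83 to 0.085. For 20 mg/mL and 12 days they were Srebf1 -0.25 to 0.21, Fads2 -1.04 to 0.038 and Thrsp -0.015 to 5.72. At 10 mg/mL and 12 days they were Fasn -0.13 to 0.0070, Acly -0.060 to 0.053, Elovl6 -0.13 to 0.71 and Srebf1 -0.089 to 0.27. At 5 mg/mL and 12 days they were Elovl6 -0.62 to 0.44, Srebf1 -0.20 to 0.16 and Fads1 -0.17 to 0.10.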
